A study of Mus with 21 samples.

Results

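The 9 libraries described here come from whole brains of female embryos at E17.5 that all carry one deleted allele of Nipbl, and they ask what changes in such brains when one allele of Wapl is deleted as well. They are the 6 libraries labelled "Wapl delta; Nipbl delta", called double heterozygotes here, and the 3 libraries labelled "Nipbl delta", called Nipbl+/-. The series holds 21 libraries in all, the other 12 being 5 WT (Wapl +/+; Nipbl +/+) and 7 Wapl Δ/+ (labelled "Wapl delta", Nipbl +/+). Each library is poly(A) RNA of one embryo. Mice were kept on C57BL/6J. The Wapl deletion removes the promoter and the first exons, was made with E2a-Cre from a floxed allele built in 129-derived embryonic stem cells, and was carried in the germ line, so that every cell of the embryo is heterozygous. The Nipbl deletion was made in the germ cells of the sire by Stra8-icre. In 4 double heterozygotes (replicates 1 to 4) the labels write the deleted Wapl allele first, and in the other 2 (replicates 5 and 6) second. A pair of crosses produced the embryos, and the labels do not say which embryo came from which.

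Cohesin is a ring-shaped complex that entraps DNA, holds sister chromatids together and extrudes loops of chromatin in interphase. NIPBL, with its partner MAU2, loads cohesin and drives loop extrusion, and WAPL, acting with the PDS5 proteins, opens the ring and releases it from DNA. Heterozygous loss of NIPBL causes Cornelia de Lange syndrome, in which many genes are misexpressed by small amounts, and the brain is among the organs affected.

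A total of 30552 genes were tested, those whose normalized counts added up to 10 or more across the 21 libraries, with edgeR's quasi-likelihood test on the 9 libraries. A gene was called when its Benjamini-Hochberg adjusted p over all genes tested was below 0.10. Total counts on genes ran from 30059079 to 32426068 in the 3 Nipbl+/- libraries and from 28686272 to 33128901 in the 6 double heterozygotes. "Normalized count" means a count scaled to the mean library size by TMM factors. Each library is a separate embryo, so p-values measure the spread between embryos and library preparations together. Values are given per library, or as lowest, median and highest for the double heterozygotes, and fold changes are log2, double heterozygote minus Nipbl+/-.

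Both targeted genes had the levels their labels imply. Wapl, on chromosome 14 (GRCm38, 34672379 to 34747983), had 1386, 1320 and 1470 normalized counts in the Nipbl+/- brains. Double heterozygotes had between 704 and 774 (median 739), so the groups did not overlap. This is 52.9% ± 2.03 (SD, n = 6) of the Nipbl+/- mean. Wapl fell by 0.92 on the log2 scale (standard error 0.053, 95% interval -1.03 to -0.81, edgeR adjusted p = 4.38e-07). Nipbl, on chromosome 15 (8289824 to 8465315), had 1136, 1104 and 1287 normalized counts in Nipbl+/- brains and 1135 to 1244 (median 1186) in double heterozygotes. The groups overlapped, and the double heterozygotes stood at 100.9% ± 3.29 (SD, n = 6) of the Nipbl+/- mean and 54.8% ± 1.79 of the WT mean. Its log2 fold change was 0.01 (95% interval -0.11 to 0.13), with either sign depending on the library left out.

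**Figure D1:**
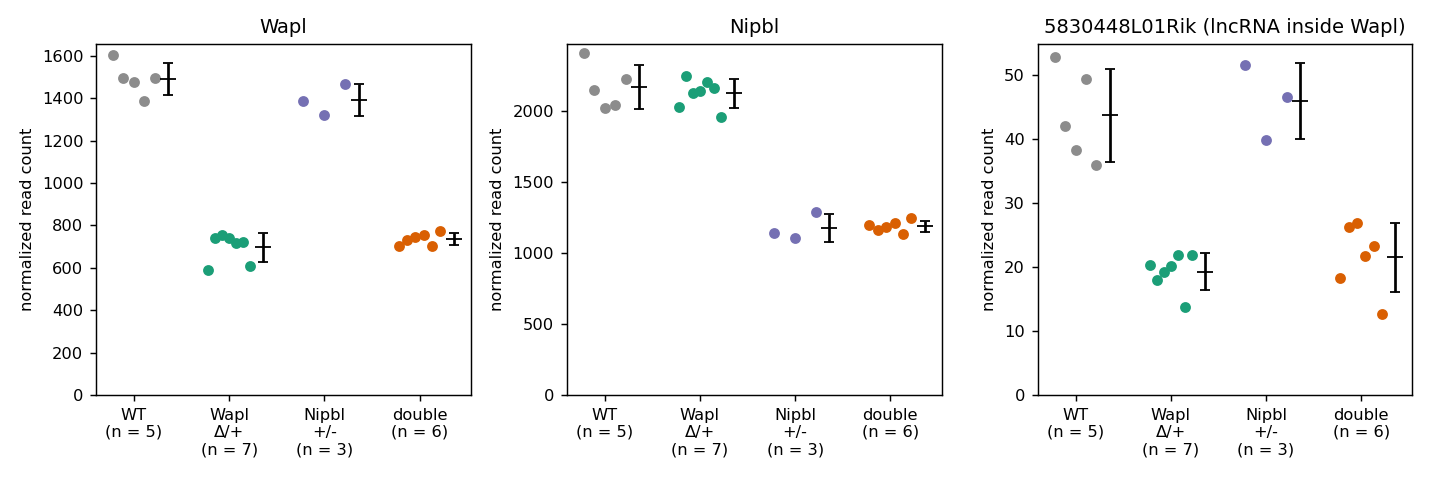
Normalized read counts of Wapl, Nipbl and the long noncoding RNA 5830448L01Rik in each of the 21 libraries (points), with the group mean and SD (black bars). The y axes start at 0. In the double heterozygotes Wapl lies between 704 and 774 and Nipbl between 1135 and 1244.

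The lncRNA 5830448L01Rik (chromosome 14, 34672971 to 34674668), annotated inside Wapl and starting 592 bases from the annotated start of that gene, was the neighbour with the smallest p. It was singled out after its values were seen, since its mean level was below the 1 CPM (count scaled per library total) that the rule for named genes asks. Its raw counts were 52, 41 and 44 in Nipbl+/- brains and 19, 24, 28, 20, 25 and 12 in double heterozygotes, with no overlap. The log2 fold change was -1.09 (standard error 0.21, unadjusted p = 9.1e-05), but the edgeR adjusted p was 0.696. With all 4 groups in one fit it was called (adjusted p = 0.0435). Counted from the annotated Wapl start, its 1698 bases lie within the segment that, by the paper's coordinates, the Wapl deletion removes. The deleted allele would then lack this lncRNA too. Counts of overlapping genes may also share reads, and which of the pair a read came from cannot be told here. What each of these adds to the fall was not tested.

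No other gene near Wapl passed the test. Within 10 Mb on either side, 155 genes were tested besides Wapl, and 0 were called. At an unadjusted p below 0.05, 4 genes lay above Nipbl+/- and 6, among them 5830448L01Rik, below it (2.24% and 1.84% of all genes tested). The median log2 fold change of the 89 with at least 1 CPM was 0.02. Within 1 Mb, 11 other genes had at least 1 CPM. Their log2 fold changes ran from -0.23 for Ldb3, a muscle Z-disc protein, to 0.22 for Sncg, a synuclein. Glud1, the glutamate dehydrogenase of mitochondria, was at 0.02 (95% interval -0.09 to 0.14). Bmpr1a, a BMP receptor, was at 0.07 (-0.03 to 0.17). Grid1, a delta-type glutamate receptor, was at 0.04 (-0.08 to 0.17). Gdf10, a BMP-family ligand, had the smallest p of these 11 (0.21, unadjusted p = 0.0226). The remaining 6 were Gprin2 (0.10), Shld2 (0.01), Mmrn2 (-0.12), Zfp488 (-0.09), Syt15 (-0.09) and Ldb3, and each interval included 0.

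Across the transcriptome, adding the Wapl deletion called 2 of 30552 genes (0.00655%), Wapl itself and the protocadherin Pcdhb17, 1 in each direction (0.00327% each). The next adjusted p was 0.696. At an unadjusted p below 0.05 there were 684 higher genes (2.24%) and 561 lower genes (1.84%), 1245 together (4.08%), where uniform p-values would give 1528. DESeq2 called 5 genes, the same 2 with Mbnl1, mt-Tp and Thoc2, and had 721 genes at an unadjusted p below 0.05. For the 17280 genes averaging 1 CPM or more, the median absolute log2 fold change was 0.06 and the 95% interval reached a median of 0.16 to either side of the estimate. The interval lay within 1 log2 unit of 0 for 99.2% of these genes and within 0.5 for 90.6%. In simulated counts of these group sizes with 200 changed genes, the same test recovered 46% of genes changed by 0.32 on the log2 scale. It recovered 86% of those changed by 1.5-fold and 98% of those changed by 2-fold, and 30 of its 195 calls were false. Adjusted p-values depend on how many genes change, and the simulated libraries were drawn independently. These shares therefore do not give the recovery in the real comparison.

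**Figure D2:**
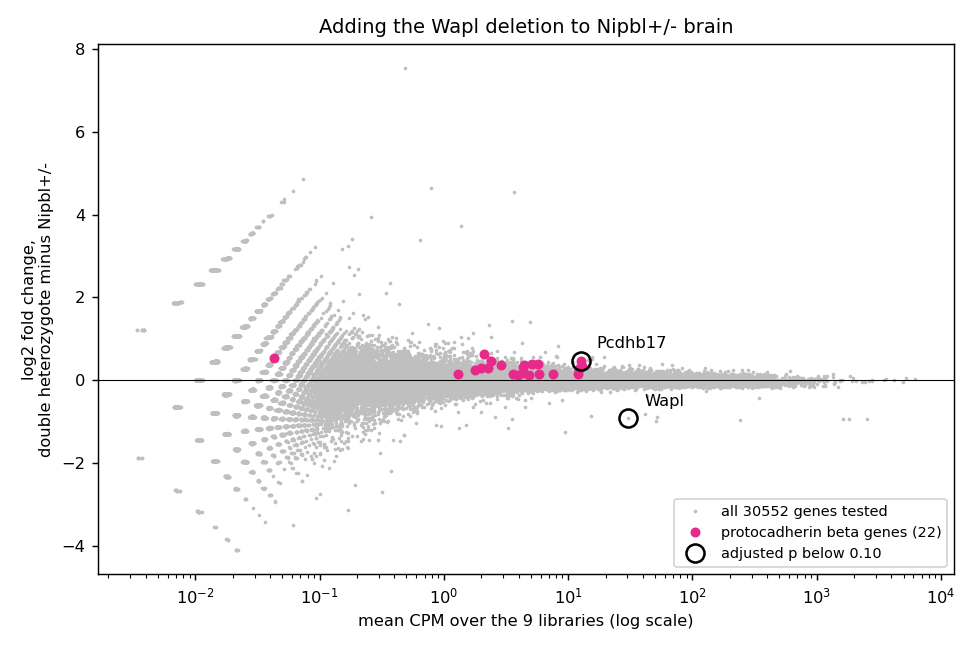
Log2 fold change (double heterozygote minus Nipbl+/-, y axis) against mean CPM over the 9 libraries (x axis, log scale) for all 30552 genes tested. The 2 genes with an adjusted p below 0.10 are circled, and the 22 protocadherin beta genes, coloured, all lie above 0.

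Libraries of the same group were as far apart as libraries of different groups. On log2 CPM of all tested genes, the mean Euclidean distance was 85.9 among double heterozygotes, 88.7 among Nipbl+/- brains and 86.9 between the groups. The ratio of between to within was 1.01 (two-sided exact permutation p = 0.81 over all 84 assignments of 9 libraries). It moved between 0.980 and 1.03 as single libraries were left out, so its side of 1 is not determined. Double heterozygotes 2 to 5 were nearer, by mean distance, to the WT than to the Nipbl+/- libraries. The gap was widest in replicates 3 (81.4 and 86.2) and 5 (83.6 and 89.6), and small in replicates 2 (84.7 and 85.4) and 4 (85.7 and 86.4). Replicates 1 and 6 were nearer to Nipbl+/- (84.9 and 89.0) than to WT (86.4 and 90.6). Such a mean also grows with the spread within the reference group, and the distance among WT libraries is not given here.

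Some signals other than the targeted genes set single libraries apart. The mitochondrial gene mt-Nd3 had 96 and 68 counts in double heterozygotes 5 and 6, and between 1 and 4 in the other 7 libraries, so this signal goes with which Wapl allele is written first, and all 3 Nipbl+/- libraries are on the low side. In the other groups it had 0 and 3 counts in Wapl Δ/+ replicates 1 and 2, 52 to 106 in replicates 3 to 7, 1 to 6 in WT replicates 1 to 3, and 83 and 75 in WT replicates 4 and 5. Its part in the results was not tested beyond the fits by allele order and with it as a covariate. A trio of annotations at the ribosomal RNA locus (Gm42418, AY036118 and CT010467.1, noticed after their values were seen) took 1.87% of the counts of Nipbl+/- replicate 3, 0.366% and 0.382% of the other Nipbl+/- libraries and 0.207% to 0.946% of the double heterozygotes. Neuronal markers, as the label of the tissue implies, were abundant in all 9 (10 genes, summed at 6380 to 7127 CPM, with overlapping groups).

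The clearest group of genes was the protocadherin beta cluster. Clustered protocadherins are cell adhesion proteins that give neurons a surface identity, and their promoters are chosen through contacts between CTCF and cohesin sites and distant enhancers. The 22 protocadherin beta genes lie in a row on chromosome 18, each with its own single coding exon. All 22 were tested and all 22 were higher in double heterozygotes, with a median log2 fold change of 0.30, against 0.00 over all genes tested. Pcdhb17 was called, 10 were higher at an unadjusted p below 0.05 (2.24% of all genes were), and 0 were lower. In 8 of the 21 members with at least 1 CPM, all 6 double heterozygotes lay above all 3 Nipbl+/- brains, which held for 1.13% of all genes with that level.

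Pcdhb17 had 301, 329 and 314 normalized counts in Nipbl+/- brains. The double heterozygotes had 460, 439, 398, 431, 441 and 452, each above every Nipbl+/- library. It rose by 0.47 on the log2 scale (standard error 0.069, 95% interval 0.33 to 0.62, edgeR adjusted p = 0.0712). The call is a narrow one. Pcdhb17 was not called when Wapl itself and the genes within 10 Mb of it were left out of the test. With the log2 mt-Nd3 level as a covariate the log2 fold change was 0.46 and the adjusted p 0.378. Its log2 fold change stayed between 0.44 and 0.51 as each library was left out, but the adjusted p rose above 0.10 in 8 of those 9 fits, the exception being double heterozygote 3. Within replicates 1 to 4 the log2 fold change was 0.46, and within replicates 5 and 6, 0.51, both against all Nipbl+/- libraries.

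None of the other members passed. Pcdhb22 had 331, 362 and 343 normalized counts in Nipbl+/- and 395 to 468 (median 441) in double heterozygotes, or 0.34 higher on the log2 scale (standard error 0.072, unadjusted p = 0.000227, edgeR adjusted p = 0.968). Pcdhb19 had 135, 168 and 146 against 178 to 213 (median 198), a log2 fold change of 0.39 (standard error 0.098). Neither member had overlapping groups. The 10 members at an unadjusted p below 0.05 were Pcdhb10, Pcdhb11, Pcdhb12 and the 7 from Pcdhb16 to Pcdhb22, so that none came from the first 9 genes of the row. Their log2 fold changes ran from 0.28 for Pcdhb20 to 0.64 for Pcdhb21. From Pcdhb2 to Pcdhb9 the log2 fold changes ran from 0.12 to 0.30, and for Pcdhb1 (0.53, 95% interval -1.23 to 2.30), with at most 2.80 normalized counts in any of the 9 libraries, the interval is wide. Pcdhb2 (0.15) changed sign without Nipbl+/- replicate 1.

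**Figure D3:**
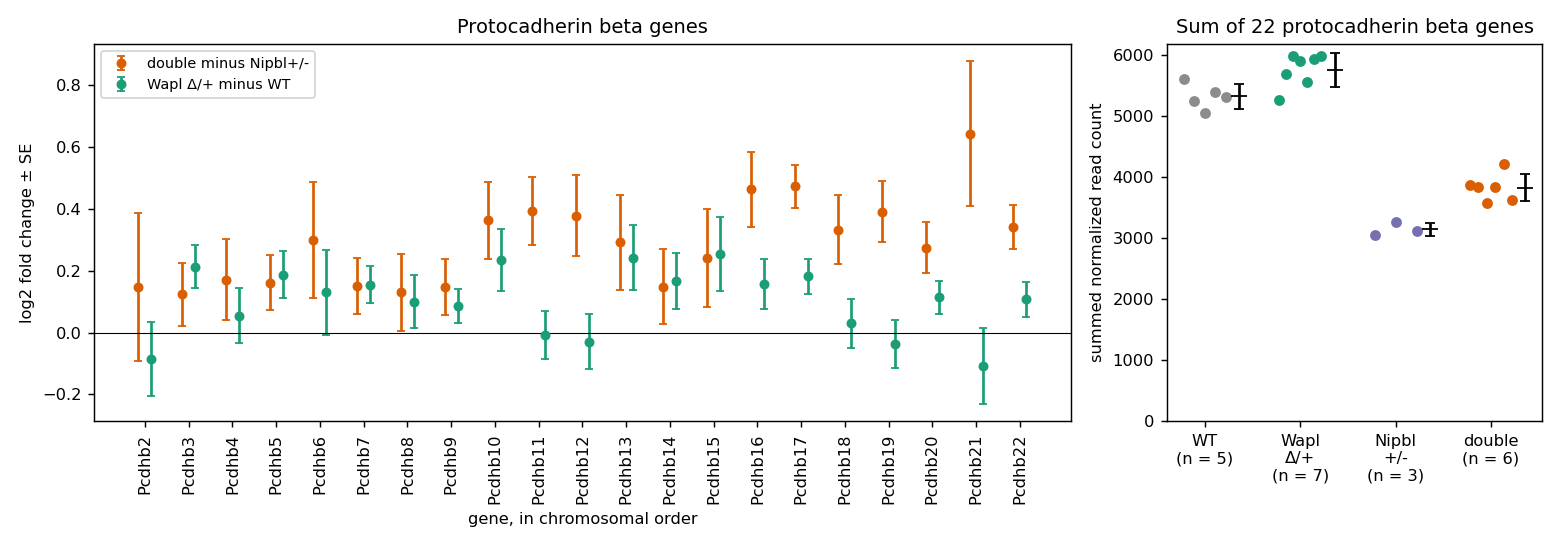
Left, log2 fold change with its standard error for the 21 protocadherin beta genes with at least 1 CPM, in chromosomal order, for the Wapl deletion added to Nipbl+/- (orange) and to WT (green). Right, summed normalized counts of the 22 genes per library, with the group mean and SD; the double heterozygotes (3584 to 4214) lie above Nipbl+/- (3053 to 3269) and below WT (5053 to 5617).

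Summed over the cluster, the normalized counts were 3053, 3269 and 3110 in Nipbl+/- brains and 3584 to 4214 (median 3839) in double heterozygotes. Replicate 5 had all 22 members above the highest Nipbl+/- library, and replicate 3 had the fewest, 12. WT brains had 5053 to 5617, so the sum was 59.0% ± 2.10 (SD, n = 3) of the WT mean in Nipbl+/- and 71.9% ± 4.22 (SD, n = 6) in double heterozygotes. In the Nipbl +/+ background, Wapl Δ/+ brains had 5258 to 5990, which overlapped WT. The median log2 fold change of the cluster from WT to Wapl Δ/+ was 0.11, and edgeR called 0 members. The unadjusted p was below 0.05 upward in 8 and downward in 0 (7.04% and 8.34% of all genes). The paper, with DESeq2 and the same threshold, reports Pcdhb3 and Pcdhb17 as higher. Their edgeR adjusted p was 0.151 and 0.129. The interaction, the Wapl effect in Nipbl+/- minus that in Nipbl +/+, had an unadjusted p below 0.05 and a positive sign in 8 of 22 members and a negative sign in 0 (6.96% and 5.76% of all genes), and passed the adjusted threshold in 0. Neurons are one part of a whole brain. The neuron markers summed to 6380 to 6577 CPM in Nipbl+/-, 6437 to 7127 in double heterozygotes and 6641 to 6929 in WT. Fewer neurons and less RNA per neuron cannot be told apart in these bulk samples.

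The alpha and gamma clusters next to it were described from their own counts with a limit. Within each, the members' counts were nearly one quantity: over 21 libraries the lowest pairwise correlation was 0.98 among 13 alpha genes and 0.97 among 22 gamma genes, and the highest mean was 1.20 and 1.23 times the lowest. Their transcripts share 3' exons, so reads of one member may have been counted for all. The median log2 fold change was 0.02 for alpha and -0.10 for gamma. Pcdha6 (0.03), Pcdha3 (0.02), Pcdhga4 (-0.11) and Pcdhga11 (-0.11) had the smallest p of their clusters, and 0 members of either had an unadjusted p below 0.05.

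Of the 5 subunits of the cohesin ring, none was called. Stag2 is the X-linked member of a pair of alternative subunits. It had 1871, 1924 and 1998 normalized counts in Nipbl+/- and 2126 to 2233 (median 2161) in double heterozygotes. The groups did not overlap, which held upward for 1.13% of all genes of at least 1 CPM. The log2 fold change of Stag2 was 0.17 (standard error 0.045, unadjusted p = 0.00191, edgeR adjusted p = 0.968). Its alternative, Stag1, was at 0.04 (-0.07 to 0.15). The core subunits Rad21 (0.04), Smc1a (-0.03) and Smc3 (0.02) overlapped between the groups.

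Among loading and release factors, Pds5b, named after its values were seen, had 2451, 2939 and 2895 normalized counts in Nipbl+/- and 2952 to 3367 (median 3271) in double heterozygotes. These groups did not overlap, which held upward for 1.13% of all genes of at least 1 CPM. The log2 fold change of Pds5b was 0.21 (standard error 0.065) and the unadjusted p was 0.00545. The gap between the highest Nipbl+/- library and the lowest double heterozygote was narrow. Mau2 (0.05), Pds5a (0.07) and Cdca5, which protects cohesin from release (-0.02), overlapped. The cohesin acetylation and boundary genes Esco1 (0.03), Esco2 (-0.09), Hdac8 (0.08) and Ctcf (-0.02) did too. Of 10 regulators whose mutation gives syndromes like Cornelia de Lange, Taf1, a TFIID subunit, had an unadjusted p of 0.0311 (log2 fold change 0.16), and Ankrd11 was at -0.11 (unadjusted p = 0.156).

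The genes next in rank among increases without overlap did not pass the edgeR test. Mbnl1, a splicing regulator, had 662, 691 and 639 normalized counts in Nipbl+/- and 773 to 823 (median 802) in double heterozygotes, or 0.27 higher on the log2 scale (standard error 0.052, edgeR adjusted p = 0.696 and DESeq2 adjusted p = 0.0692). The mitochondrial proline tRNA mt-Tp had 288, 309 and 237 against 356 to 435 (median 374), and its log2 fold change was 0.45 (edgeR adjusted p = 0.905, DESeq2 adjusted p = 0.0708). Thoc2, of the mRNA export complex THO, had 1688, 1610 and 1774 against 1907 to 2019 (median 1952), at 0.21 (edgeR adjusted p = 0.968, DESeq2 adjusted p = 0.0898).

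Smaller or less abundant increases of this rank were Ndst4, a heparan sulfate sulfotransferase (0.29), Pgm5 (0.44), Dock10, a guanine nucleotide exchange factor (0.37), and Efemp1, a matrix glycoprotein (0.46). The 9 decreases of the same rank, after Wapl, were 1110002J07Rik (-0.46), Ern2 (-0.44), Scd3, a stearoyl-CoA desaturase (-0.42), Rcc1l (-0.20), Gm26568 (-0.56), Gm3252 (-0.34), Trmu, which modifies mitochondrial tRNAs (-0.20), Gm47119 (-0.28) and Ogdhl (-0.19). Each had an edgeR adjusted p of 0.968. These genes were chosen for not overlapping, which 196 genes of at least 1 CPM did upward (1.13%) and 214 downward (1.24%), 410 in all (2.37%). At that level 2.58% of genes were higher and 1.42% lower with an unadjusted p below 0.05.

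Of 11 further genes, picked because earlier results of these same libraries featured them, 0 passed, and several varied more among the double heterozygotes than between the groups. Shc3, a neuronal signalling adaptor, had 109, 190 and 218 normalized counts in Nipbl+/- and 139, 173, 489, 330, 610 and 70.6 in double heterozygotes. Replicates 3, 4 and 5 lay above every Nipbl+/- library and replicate 6 lay below, and the log2 fold change was 0.82 (standard error 0.49, edgeR adjusted p = 0.968). Hipk2, a nuclear kinase, had 942, 1136 and 1667 against 1257, 1217, 2059, 1840, 2417 and 435. Here too replicate 6 was lowest and replicate 5 highest (log2 fold change 0.30, standard error 0.34). Lcor, a nuclear receptor corepressor, ran from 49.5 in replicate 6 to 228 in replicate 5 around a log2 fold change of 0.52 (standard error 0.35).

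Adcy1, an adenylate cyclase of neurons, followed that order in part, with 6796 normalized counts in replicate 6 and 12450 in replicate 3 (log2 fold change 0.25, standard error 0.17). Mef2c (0.16), Gjb2 (0.21), Prnd (0.18), Dmrt2 (0.54, unadjusted p = 0.0506) and Dbx1 (-0.38) overlapped between the groups. Leaving out single libraries moved Mef2c between 0.030 and 0.38, Prnd between 0.041 and 0.35, Gjb2 between 0.13 and 0.38, Adcy1 between 0.090 and 0.44, Hipk2 between 0.13 and 0.57, Lcor between 0.26 and 0.79 and Shc3 between 0.49 and 1.02. Cd163, of border macrophages, had 26.8, 35.0 and 24.4 against 20.0 to 56.5 (log2 fold change 0.43, standard error 0.27). Gpr37l1, of astrocytes, was at 0.18 (standard error 0.39). Dbx1 and Gpr37l1 changed sign without Nipbl+/- replicate 1.

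No neuronal gene group held a called gene. Of 23 glutamate receptor genes, 5 were higher at an unadjusted p below 0.05 and 0 lower, with a median of 0.05, where 2.24% of all genes tested were higher and 1.84% lower. The kainate receptor Grik2 had 2387, 2617 and 2505 normalized counts in Nipbl+/- and 2662 to 3140 (median 2822) in double heterozygotes (log2 fold change 0.20, standard error 0.057, edgeR adjusted p = 0.968). Its groups did not overlap, which held upward for 1.13% of all genes of at least 1 CPM. Grin3a, an NMDA receptor subunit, was at 0.29 (standard error 0.11). Of 38 axon guidance genes, 6 were higher and 1 lower, against the same 2.24% and 1.84%. The netrin receptors Unc5c (0.20) and Unc5d (0.18) had the smallest p of that list.

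Of 13 GABA-A receptor genes, 12 were above 0 (median 0.10), with Gabrb2 at 0.57 (unadjusted p = 0.0385) and Gabrd at -0.37 (unadjusted p = 0.0485). Among all genes of at least 1 CPM, 49.3% were above 0. Summed levels of this list overlapped, at 512 to 593 CPM in Nipbl+/- and 533 to 632 in double heterozygotes. At an unadjusted p below 0.05, 2.24% of all genes tested were higher and 1.84% lower. The list of synaptic adhesion and scaffold genes had 3 of 36 higher, led by Lrrtm2 (0.20) and Slitrk4 (0.27). Sodium and calcium channels had 2 higher and 1 lower of 23, with Cacna2d1 (0.23) and Cacnb4 (0.16) first. Kcna2 (0.22) was the 1 potassium channel gene of 23 at an unadjusted p below 0.05, and Kcna3 was at 0.63 (unadjusted p = 0.0767). Of 31 vesicle release genes 0 were, with Syt4 (0.15) and Sv2c (0.21) first.

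**Figure D4:**
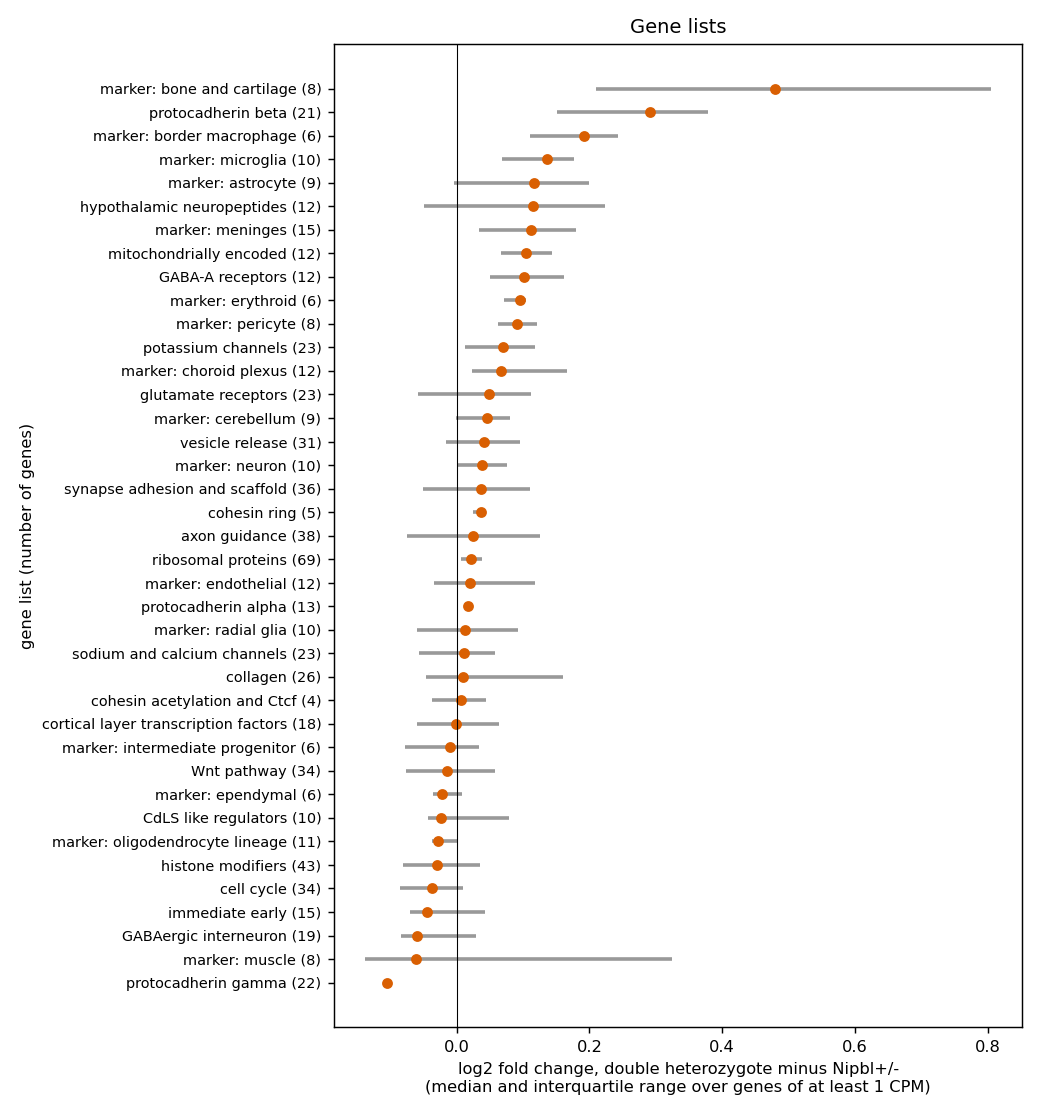
Median (point) and interquartile range (line) of the log2 fold change, double heterozygote minus Nipbl+/-, over the genes of at least 1 CPM in each gene list, whose number stands in brackets. Protocadherin beta (21 genes) has its median at 0.29; protocadherin alpha and gamma counts are nearly shared within each cluster. The lists of pituitary markers, of loading and release factors and of the 11 genes taken from earlier results are given in the text.

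Several lists held 0 genes at an unadjusted p below 0.05, where 4.08% of all genes tested had such a p. In the cell cycle list 11 of 34 were above 0 (median -0.04), with Plk1 (-0.12) and Birc5 (-0.14) first. The Wnt pathway list had 0 of 36 (Wnt7b, -0.14, and Fzd4, 0.17), histone modifiers 0 of 43 (Kmt2c, 0.14, and Kdm4a, -0.11), and immediate early genes 0 of 18 (Ier2, 0.23, and Nr4a1, -0.09). Transcription factors of cortical layers had 0 of 18 (Pou3f2, 0.09, and Cux2, -0.12) and genes of GABAergic interneurons 0 of 20 (Lhx6, -0.13). Ribosomal proteins were above 0 in 59 of 69, by a median of 0.02 (Rpl17 and Rpl35, 0.09 each, both highest in double heterozygote 5). Over all genes of at least 1 CPM, 49.3% were above 0.

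Mitochondrially encoded genes were above 0 in 15 of 15, with a median of 0.12, and 4 were higher at an unadjusted p below 0.05 (2.24% of all genes were). mt-Nd5, a subunit of complex I, had 37832, 42240 and 38631 normalized counts in Nipbl+/- brains and 42184 to 45644 in double heterozygotes (log2 fold change 0.14, standard error 0.055). mt-Nd6 was at 0.15 (standard error 0.055). mt-Nd3, one of the 15, was high in double heterozygotes 5 and 6, whereas mt-Nd5 was lowest among the double heterozygotes in replicate 5 and highest in replicate 6. Collagens had 2 of 26 higher, Col12a1 (0.31) and Col25a1 (0.21), and hypothalamic neuropeptides 1 of 18, Penk (0.20), with Avp at 0.33.

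Markers of the cell types of the brain showed no called gene. Neuron markers Nefm (0.14) and Nefl (0.15), the radial glia marker Hopx (0.33), the astrocyte marker Gja1 (0.20), the microglia markers P2ry12 (0.40) and Cx3cr1 (0.17) and the border macrophage marker Lyve1 (0.26) had an unadjusted p below 0.05. At that p, 2.24% of all genes tested were higher. P2ry12 and Nefm did not overlap between the groups, with all 6 double heterozygotes higher. Of all genes of at least 1 CPM, 1.13% did so and 49.3% had a log2 fold change above 0. Neuron markers were above 0 in 7 of 10 (median 0.04), radial glia markers in 6 of 10 (0.01), astrocyte markers in 7 of 10 (0.15), oligodendrocyte lineage markers in 3 of 12 (-0.03) and endothelial markers in 8 of 12 (0.02). Microglia markers were above 0 in 9 of 10 (median 0.14), with summed levels of 89.0 to 103 CPM in Nipbl+/- and 96.4 to 118 in double heterozygotes. In vessels and linings, Tagln of pericytes (0.25), Crabp2 of the meninges (0.27) and Prlr (0.43) and Aqp1 (0.19) of the choroid plexus had an unadjusted p below 0.05, and Crabp2 and Prlr did not overlap. Summed levels of every one of these lists overlapped between the groups. Further first genes by p, none below 0.05, were Slc1a3 (0.09), Elavl2 (0.08), Eomes (-0.09), S100b (0.34), Pdgfra (0.18), Olig2 (-0.10), Mrc1 (0.19), Flt1 (0.24), Pecam1 (0.15), Abcc9 (0.14), Cfap43 (0.14), Ak7 (-0.07), Atoh1 (0.37) and Cbln1 (0.08).

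Some markers of tissues next to the brain were high in single libraries. Growth hormone, Gh, had 0, 0 and 22.3 normalized counts in Nipbl+/- brains, at most 0.958 in double heterozygotes 1 to 4, and 201 and 820 in replicates 5 and 6. The pituitary markers summed to 3.83 to 5.45 CPM in Nipbl+/- and 3.01 to 43.5 in double heterozygotes, with Pomc highest in replicate 6 (315 against 20.7 to 101). Matn1 of cartilage had 345 in double heterozygote 1 and at most 8.78 in the other 8 libraries, and Runx2 had 109.8 in double heterozygote 2. The muscle myosin Myh3 had 513 in Nipbl+/- replicate 3 and 19.0 to 315 in double heterozygotes, and Acta1 reached 707 in double heterozygote 3. Erythroid markers summed to 339 to 681 CPM and 350.1 to 648, with Hbb-bs at 0.11 and Hba-a2 at 0.11. Whether such tissue was taken along with the brain, and its part in the other results, was not tested.

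The same Wapl deletion in the Nipbl +/+ background gives a comparison that shares no library with the one above. In it 5 of 7 Wapl Δ/+ and 2 of 5 WT libraries are on the high side of mt-Nd3, and with those 5 Wapl Δ/+ libraries alone against WT 1253 genes were called. Wapl Δ/+ (7 libraries) against WT (5 libraries) called 643 genes (2.10%), of which 209 were higher (0.684%) and 434 lower (1.42%). That count rests on few libraries. It was 13, 9, 238 and 28 without WT replicates 1, 2, 4 and 5, and 408, 1424, 210 and 207 without Wapl Δ/+ replicates 1, 2, 4 and 5. With all 4 groups in one fit it was 8. The genes so called tended to differ in the opposite direction in the Nipbl+/- background. Of the 433 lower genes other than Wapl, 323 (74.6%) were higher in double heterozygotes than in Nipbl+/- brains, with a median log2 fold change of 0.10 against -0.33 in the Wapl Δ/+ comparison. Of the 209 higher genes, 33 (15.8%) were higher in double heterozygotes, with medians of -0.07 and 0.18. Among all genes of at least 1 CPM, 49.3% were higher.

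The differences behind these shares were within the spread of single libraries. Against the Nipbl+/- mean, the median over the 433 genes was 0.27 in double heterozygote 3 and 0.21 in replicate 5, and -0.02 and -0.21 in replicates 1 and 6. Within Nipbl+/- itself, replicate 1 stood at -0.24 and replicate 3 at 0.14 against their 2 group mates. Without Nipbl+/- replicate 1 the shares became 53.8% of the 433 and 31.1% of the 209, and without double heterozygote 5 the latter was 26.8%. Within replicates 1 to 4, 86.1% of the 433 genes were higher than in Nipbl+/-, and within replicates 5 and 6, 53.8%. Of the 433, 13 had an unadjusted p below 0.05 upward and 4 downward, where 2.24% and 1.84% of all genes tested did. Of the 209, 0 did so upward and 2 downward. Across the 17280 genes of at least 1 CPM, which are not independent, the fold changes of the 2 comparisons had a Pearson's r of -0.27 and a Spearman's rho of -0.30, with library depth and common scaling factors shared.

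**Figure D5:**
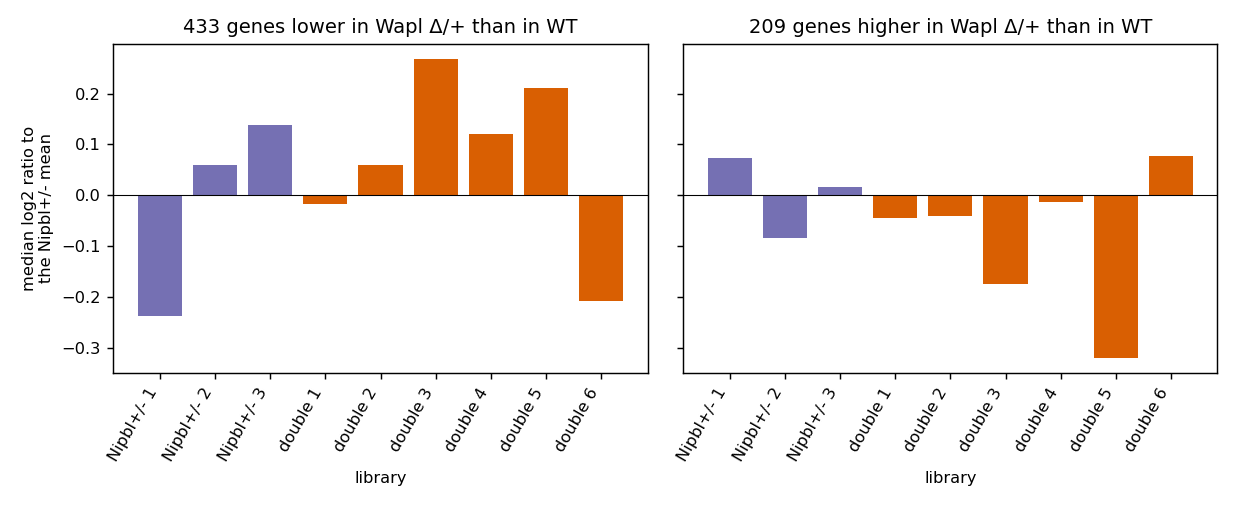
Median log2 ratio of each library over the genes called lower (left, 433 genes) and higher (right, 209 genes) in Wapl Δ/+ than in WT brains. Double heterozygotes are set against the mean of the 3 Nipbl+/- libraries and each Nipbl+/- library against the mean of the other 2; double heterozygote 6 and Nipbl+/- replicate 1 lie opposite to replicates 3 and 5 of the double heterozygotes in both panels.

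Tested directly, the Wapl effect did not pass the threshold for a difference between the backgrounds in any gene. The interaction called 0 of 30552 genes with edgeR, had 3887 genes (12.7%) at an unadjusted p below 0.05, and called 793 with DESeq2. It called 260 genes without Wapl Δ/+ replicate 2 and 307 without double heterozygote 6. For Mbnl1 the interaction was 0.42 (unadjusted p = 2.29e-05, edgeR adjusted p = 0.237). It was 2.28 for Shc3 (unadjusted p = 0.00124), 1.64 for Lcor (unadjusted p = 0.000414) and 0.18 for Wapl itself (unadjusted p = 0.0431). Mbnl1, Shc3 and Lcor were picked from results of these same libraries, so their unadjusted p-values are not an independent test.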

How the data were processed

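The deposited table holds raw counts of reads per gene (55335 genes), unnormalized; the authors trimmed paired reads with cutadapt 2.4, aligned them to mm10 (GRCm38.p6) with STAR 2.5.3a and counted them with featureCounts of Subread 1.6.4. Whether counting used strand is not given in the sources used here. All 21 columns matched a sample by name, and 0 columns belonged to other series. One further Nipbl+/- library of the study was not analysed here. Coordinates are those of the RefSeq gene table of GRCm38.p6 (24076 tested genes matched by symbol).

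TMM factors were computed over 21 libraries, and genes with at least 10 normalized counts in sum were kept (30552). Double heterozygotes and Nipbl+/-, and Wapl Δ/+ and WT, were compared with edgeR 4.0.16 (quasi-likelihood test, R 4.3.3) on the libraries of those groups, and the interaction on all 21, with Benjamini-Hochberg adjustment and a threshold of 0.10. The test was checked on simulated counts with 200 changed genes, of which the share recovered is given by fold. Euclidean distances used log2 CPM (prior count 2). DESeq2 1.42.0, other scalings, filters and thresholds, left-out libraries, allele order and a replicate block were tried as alternatives. Deposited totals of 28686272 to 33128901 counts limit the precision of genes with few counts.

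Named genes were Wapl and Nipbl, the 10 increases and 10 decreases that were called or, failing that, had the smallest p, at least 1 CPM and no overlap between groups, 11 genes featured in earlier results of these data, the called members or first 2 members by p of each list, and genes of at least 1 CPM within 1 Mb of Wapl. A gene that this rule names is not reported here. Members and lists were chosen with earlier results of these data known. Same-numbered double heterozygote and Nipbl+/- libraries correlated at 0.23, 0.05 and 0.08 in their deviations, so the numbers were not taken as pairs.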

Additional observations from a re-analysis of the deposited data

Results flagged for a closer look

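A library stood apart from the rest of its group, by Dixon's ratio, in 20 of the 203 sets examined, where chance alone would give 10.2. Each set held the values of a gene or gene list in the 6 double heterozygotes, 7 Wapl Δ/+ or 5 WT libraries. The 3 Nipbl+/- libraries were not examined in this way. Among double heterozygotes, replicate 1 had the highest Matn1 (345 normalized counts, the others 3.83 to 8.78) and Pcdhb5 (213, the others 181 to 191), and the lowest Pcdhb13 (54.9, the others 74.8 to 85.0). Replicate 2 had the highest Runx2 (109.8, the others 36.9 to 56.8). Replicate 3 had the highest Stag1 (2513, the others 2329 to 2365), Acta1 (707, the others 82.8 to 310.2) and Ldb3 (180.1, the others 77.5 to 102), and the lowest Pcdhga4 (13304, the others 15165 to 16281) and Pcdhga11 (13728, the others 15665 to 16740). The gamma protocadherin counts are nearly one quantity, so these last values are one observation.

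Replicate 4 had the highest Prnd (175 normalized counts, the others 123 to 137). Replicate 5 had the highest mt-Tp (435, the others 356 to 383), Rpl17 (11843, the others 8714 to 9594), Rpl35 (5534, the others 3921 to 4511) and Pcdhb21 (122, the others 52.7 to 73.5), and the lowest Trmu (648, the others 728 to 759.6). Replicate 6 had the highest Gh (820, the others 0 to 201) and Pomc (315, the others 20.7 to 101). Outside the double heterozygotes, Wapl Δ/+ replicate 1 had the lowest Mbnl1 (599, the others 722 to 809) and Ndst4 (273, the others 363 to 430), and WT replicate 3 the lowest Pcdhb8 (163, the others 208 to 224).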

How the results depend on the processing

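Double heterozygote against Nipbl+/- called 2 genes. DESeq2 called 5, a threshold of 0.05 called 1 and mt-Nd3 as a covariate 1. Replicates 1 to 4 alone called 1, and replicates 5 and 6 alone 9 (mt-Nd3, Gh and Alb among them). Without Wapl itself and the genes within 10 Mb of it, 0 were called (1234 at an unadjusted p below 0.05), so Pcdhb17 lost its call. Leaving out single libraries gave 1 to 2. A replicate block gave 51 (47 higher, 4 lower), but the samples share only a number, not a pairing. Wapl Δ/+ against WT called 643 genes, and 1446 with DESeq2, 1014 without a filter, 173 at 0.05, 8 with all 4 groups in one fit, 1770 with the block, 1253 with the deletion written second, and 9 to 1424 without single libraries. The interaction called 0, and 793 with DESeq2, 26 with the deletion written first, 0 to 307 without single libraries and 0 with the block. The distance ratio of 1.01 was 0.987 on variance-stabilized counts, 0.982 for genes of at least 100 normalized counts, and 0.980 to 1.03 without single libraries. The cause of these changes was not tested. The median of the protocadherin beta genes, their count at an unadjusted p below 0.05 (9 to 11 without single libraries) and the shares of Wapl-called genes (9.57% to 31.1% and 53.8% to 82.7%) kept their direction except where given in the text.

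Of the named genes, log2 fold changes turned sign with the block for Rpl35 (-0.0022), Hbb-bs (-0.19), Hba-a2 (-0.19), Gh (-4.09), Pomc (-0.24), Myh3 (0.75), Syt15 (0.14) and Pcdhb2 (-0.036). They did so with replicates 1 to 4 alone for Hbb-bs (-0.10), Hba-a2 (-0.097), Gh (-4.26), Pomc (-0.40) and Syt15 (0.070), and with replicates 5 and 6 alone for Cd163 (-0.14), Col12a1 (-0.019), Acta1 (-0.75), Grid1 (-0.027) and Shld2 (-0.096). With the mt-Nd3 covariate they did so for Rpl35 (-0.00075), Hbb-bs (-0.10), Hba-a2 (-0.088), Gh (-1.52), Pomc (-0.37), Glud1 (-0.0017) and Syt15 (0.074). Without single libraries the ranges that crossed 0 were -0.030 to 0.083 for Nipbl, -0.65 to 0.058 for Dbx1, -0.097 to 0.76 for Gpr37l1, -0.00065 to 0.083 for Stag1, -0.024 to 0.11 for Pcdha6, -0.027 to 0.11 for Pcdha3, -0.26 to 0.0081 for Birc5, -0.24 to 0.016 for Eomes, -0.070 to 0.44 for Hbb-bs, -0.081 to 0.49 for Hba-a2, -1.26 to 2.17 for Myh3, -0.37 to 1.24 for Acta1, -0.0072 to 0.067 for Glud1, -0.088 to 0.065 for Shld2, -0.18 to 0.030 for Zfp488, -0.17 to 0.056 for Syt15 and -0.036 to 0.41 for Pcdhb2.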
